A study of Drosophila melanogaster with 32 samples.

Results

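The genes described here encode proteins of the muscle sarcomere and of muscle contraction. They are 33 of the 15251 genes counted in the libraries and were taken by name, or by an older name of the same gene, from a list of sarcomeric actins, myosins, troponins, tropomyosins, Z-disc proteins and their partners. By role they were 13 proteins of the thin filament, 6 of the thick filament, 10 of the Z-disc, the M-line and the elastic filaments, and 4 of the nuclear envelope, the membrane system and the calcium store. All 33 were matched; SERCA, Zasp66, Msp300 and tn stood in the files under older names.

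Total RNA was sequenced from 3 Drosophila melanogaster cell lines, R1, R4 and R5, sampled as they were split into fresh medium, each such round being a passage. The late stage held passages 16, 17 and 19 of each line (9 libraries), the intermediate stage passages 5 to 11 (13 libraries), and the early stage passages 2, 3 and 4 (9 libraries). The intermediate passages differed by line: 5, 7, 8, 10 and 11 in R1, 5, 6, 7, 9 and 11 in R4, and only 6, 7 and 8 in R5. Passage 12 of R4 fell in no stage and entered no comparison. All cultures grew in serum-supplemented Schneider's medium, and the labels give no treatment and no genotype; lines of this kind are known from published work to descend from embryonic primary cultures that express an activated Ras, which all groups would then share. Each line was followed as a single culture, whether it was clonal was not given in the sources used here, and the tissue of origin was not labelled.

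In a sarcomere, myosin of the thick filaments pulls on actin of the thin filaments, and troponin and tropomyosin block this until calcium binds troponin C. The thin filaments are anchored at Z-discs, elastic titin-like proteins span from the Z-disc to the thick filament, and the M-line holds the thick filaments in register. Flies use separate actin and troponin C genes in different muscles and stages, while several genes named here, among them Tm1, Actn, Zasp52, Msp300, jp and SERCA, are also used outside muscle.

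Library totals lay between 7760446 and 18213927 counts. Levels are given as CPM, a count scaled to the library total and adjusted by the trimmed mean of M values (TMM). Genes with a CPM of at least 1 in at least 3 of 31 libraries were tested, which left 9177 genes and 26 of the 33 members. On the first principal component of all tested genes, R4 at passage 4 stood apart from the other early libraries of its line, at -4.87, against -75.7 at passage 2 and -55.4 at passage 3. It lay nearer to R4 at passage 5, which was at 12.4. The labels name no tissue, and muscle markers were uneven. Mhc reached at most 4.97 CPM and Mlc1 at most 0.960 CPM in any library. Tm2, Mlp84B, Mlp60A, up and wupA reached at most 3.88, 5.09, 0.862, 5.67 and 12.7 CPM. Mlc2, Prm, bt and sls reached 42.3, 135.4, 250.5 and 503.7 CPM. Markers of other cell types were present as well. The summed level of 7 hemocyte (blood cell) markers was 1225 to 2137 CPM at late and 425 to 1611 CPM at early. Col4a1 held most of it, with means of 1372 CPM at late and 822.6 CPM at early (n = 3 lines). Over the 7 markers, 5 of the late against early changes were negative, with a median log2 change of -0.52. The sum of 5 fat body markers was 106.1 to 398.5 CPM at late, most of it Apoltp, and 99.5 to 989.7 CPM at early. The fat body marker Fbp1 was at 0 in 8 of the 9 late libraries and in none of the early ones.

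The members covered a wide range of CPM, which is not corrected for gene length. In no library did 6 of them, Act88F, Mlc1, TpnC47D, TpnC25D, Mlp60A and fln, reach 1 CPM, and 6 more, Mhc, Tm2, TpnC41C, TpnC4, Zasp66 and Mp20, stayed below 5 CPM. The highest library lay between 5 and 20 CPM for 6 members, between 20 and 200 CPM for 8, and above 200 CPM for 7 (Act79B, Tm1, bt, sls, Msp300, Strn-Mlck and SERCA). The 7 untested members were the 6 that never reached 1 CPM and Mp20, a calponin-like muscle protein that exceeded 1 CPM only in R1 at passage 4, with 2.03 CPM. Act88F, the actin of the indirect flight muscle, had 14.0 reads over all 32 libraries and none in 22 of them. The flight muscle protein flightin (fln) had 22 reads and none in 18 libraries. TpnC47D, a troponin C, had 17 reads and none in 19 libraries. Mlc1, the essential light chain of muscle myosin, had 78 reads, TpnC25D, another troponin C, 126 reads, and Mlp60A, a muscle LIM protein, 62 reads.

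**Figure D1:**
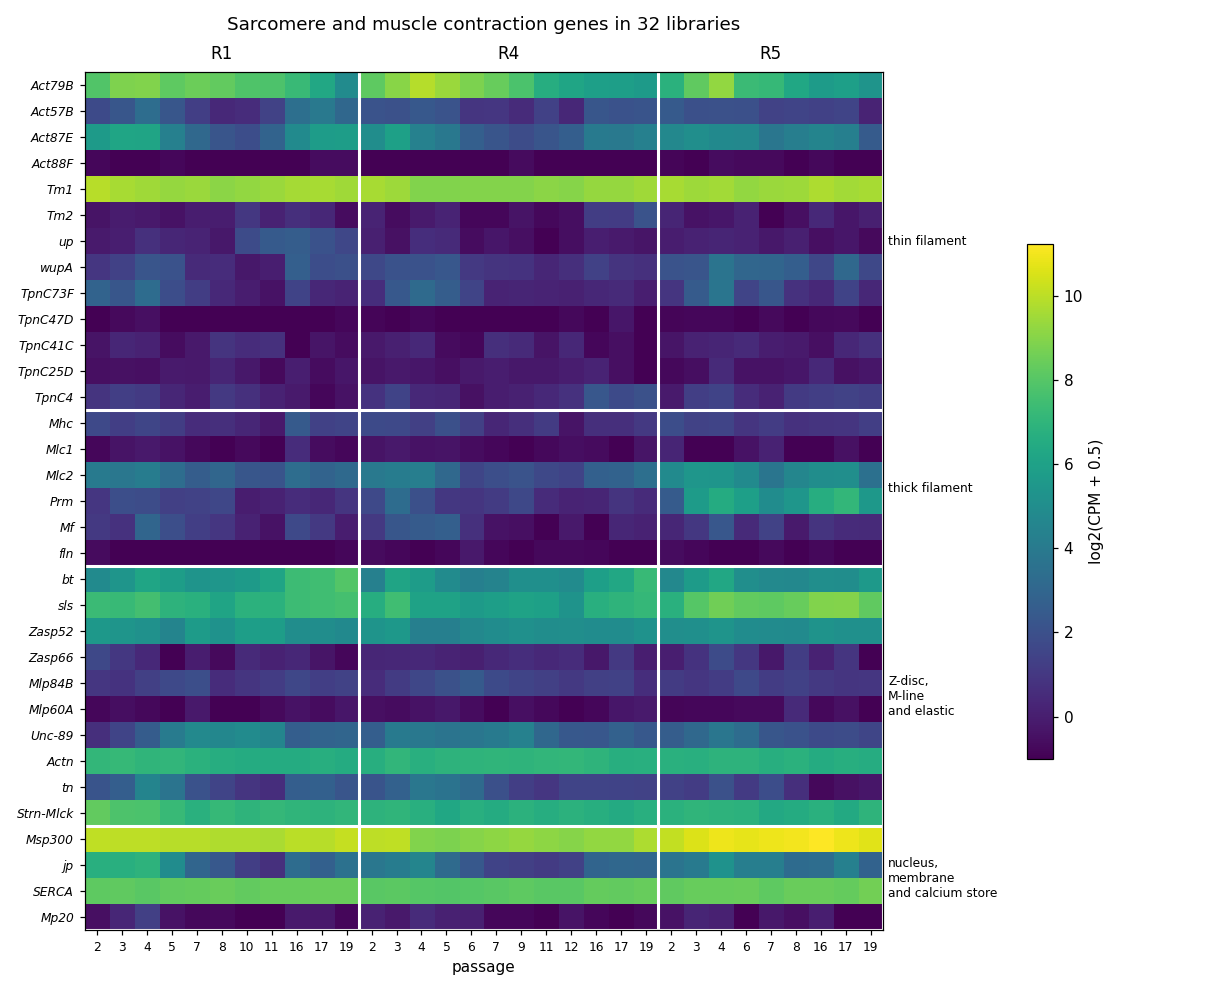
Level of each of the 33 members (rows, grouped by role) in each of the 32 libraries (columns, by line and passage), as log2(CPM + 0.5). In every line Act79B is brighter at passages 3 and 4 than at 16 to 19, Prm is brightest in R5, and Tm1, Msp300, SERCA and Actn stay bright in all libraries.

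The first question the time course allows is which members differed between the stages on average over the lines. With lines as replicates (n = 3), none of the 26 tested members rose and 2 fell at late against early passages, Act79B and TpnC73F, with 10.5% of all tested genes called, 3.98% higher and 6.56% lower (edgeR quasi-likelihood test, adjusted p under 0.05). The count of called members was thus close to the share in all genes. Of the members 16 had a negative and 10 a positive log2 change, with a median of -0.31, against 0.03 over all genes tested, and 8 had an unadjusted p under 0.05. At intermediate against early passages 2 members fell, Mlc2 and TpnC73F (9.69% of all genes called, 6.02% lower and 3.67% higher), the median log2 change was -0.49 and 22 of 26 changes were negative. At late against intermediate passages no member was called by edgeR (0.0763% of all genes called, 0.0218% higher and 0.0545% lower), and 6 had an unadjusted p under 0.05. DESeq2 called 3 members in this comparison, and 291 genes over all. No member had all 9 late libraries below, or all above, all 9 early ones, as 3.06% and 1.42% of all tested genes had.

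A larger group of members differed within the early stage. At passage 4 against passage 2, with the line as block (n = 3 lines), 5 of 26 members rose, Act79B, bt, Unc-89, tn and Mf, and none fell, while 8.76% of all tested genes were called and 3.27% were called higher and 5.49% lower (edgeR quasi-likelihood test). The median log2 change of the members was 0.61, against 0.01 over all genes. In all 3 lines 13 of 26 members were higher at passage 4 than at passage 2, against 22.5% of all tested genes. Only Act79B remained called when R4 at passage 2 was left out. Over all genes, calls went from 804 to 238 in that fit, and to 197, 410 and 386 without R1, R4 and R5. Other markers moved over the same passages: 4 of 7 hemocyte markers and 3 of 4 tested fat body markers fell and none rose. The hemocyte sum was 425 to 1226 CPM at passage 4 against 994.6 to 1611 CPM at passage 2, most of it Col4a1, with no marker at 0. The fat body sum was 99.5 to 192.7 CPM against 278.1 to 989.7 CPM, and Lsp2 was at or near 0 throughout. Of 5 tested epidermis and trachea markers 2 fell and 1 rose, the transcription factor vvl, and their sum was 142.6 to 615.8 CPM at passage 4 against 112.1 to 125.6 CPM at passage 2. Of 8 neuron markers 2 fell and of 5 glia markers 1. The neuron sum, mostly elav, was 198.9 to 215.8 CPM against 195.1 to 248.8 CPM. The glia sum, mostly nrv2, was 469.9 to 741.4 CPM against 542.8 to 733.4 CPM. Over the markers 7 of 8 neuron and 4 of 5 glia changes were negative. Among 4 adult muscle precursor genes 1 fell. The part of these cell types in the result was not tested.

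**Figure D2:**
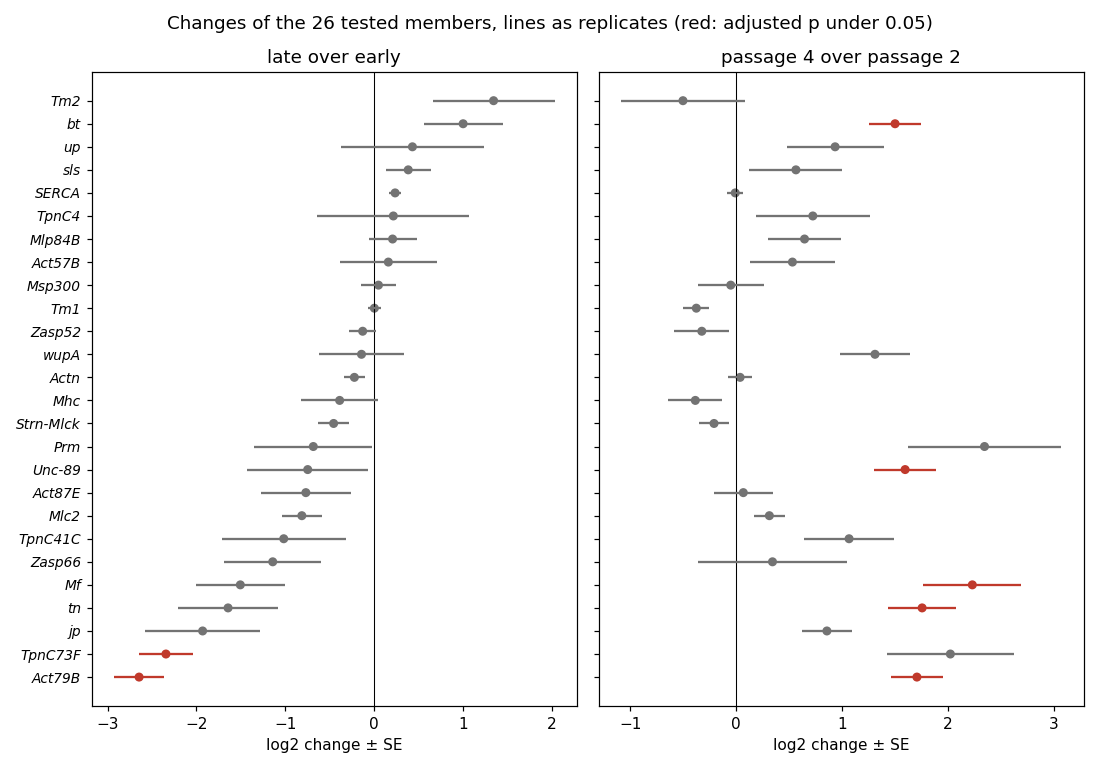
Fitted log2 changes (points) with standard errors (bars) of the 26 tested members, at late over early passages on the left and at passage 4 over passage 2 on the right, with red for an adjusted p under 0.05. Act79B lies at -2.65 ± 0.29 on the left and at 1.71 ± 0.24 on the right, so the member with the lowest late value is also among the 5 that rose between passages 2 and 4.

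Act79B, an actin known from the tubular muscles of the adult fly, had the largest late change of the tested members. At late passages R1 had 157, 80.5 and 29.0 CPM, R4 59.7, 56.6 and 50.7 CPM and R5 51.1, 58.3 and 39.1 CPM at passages 16, 17 and 19. At early passages R1 had 243, 469 and 484 CPM, R4 297, 531 and 923 CPM and R5 113, 303 and 607 CPM at passages 2, 3 and 4. In every line the 3 late values lay below all 3 early values of the same line; across lines only R1 at passage 16 exceeded the lowest early value, that of R5 at passage 2. Late against early, Act79B fell by 2.65 on the log2 scale (SE 0.29, adjusted p = 0.00716, edgeR quasi-likelihood test, n = 3 lines). Without R1 the adjusted p was 0.0704 and without R4 0.0682 (same test), with log2 changes of -2.90 and -2.40. Leaving out a line also cut the calls over all genes, from 967 to 61 without R1 and 34 without R4. In bulk RNA, fewer cells of a type and less RNA per cell cannot be told apart.

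Within each line the fall of Act79B also passed. It was -2.17 ± 0.60 in R1 (adjusted p = 0.00831), -3.39 ± 0.63 in R4 (adjusted p = 0.00039) and -2.78 ± 0.62 in R5 (adjusted p = 0.00237; edgeR quasi-likelihood test on 31 libraries). Here and below, p-values within and between lines rest on how far the passages of a single culture scatter, and no second culture of a line was available. Between passages 2 and 4 Act79B rose, to 484, 923 and 607 CPM at passage 4 in R1, R4 and R5, against 243, 297 and 113 CPM at passage 2 (log2 1.71 ± 0.24, adjusted p = 0.00925, edgeR quasi-likelihood test). Without the line as block the adjusted p of this rise was 0.0507, and the R5 fall from early had 0.0624 with passage 4 counted as intermediate. Passage 4 was the highest library of each line. The later values differed in pace: R5 was at 76.8 CPM by passage 8 and R4 at 97.3 CPM by passage 11, when R1 still had 224 CPM. The 13 intermediate libraries held 76.8 to 665 CPM.

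Per kilobase of exon, Act79B averaged 272 ± 78.4 CPM at early, 157 ± 70.8 CPM at intermediate and 40.0 ± 13.1 CPM at late passages (SD, n = 3 lines). The cytoplasmic actin Act5C stood at 1736 ± 124, 1691 ± 253 and 1715 ± 47.1 CPM per kilobase over the same stages. Act87E was at 21.9 ± 9.37, 5.70 ± 3.46 and 13.1 ± 8.67 CPM per kilobase and Act57B at 2.65 ± 0.538, 1.28 ± 0.222 and 3.27 ± 2.87. Actin genes are near-identical in coding sequence and the authors' treatment of reads that match several genes is not stated in the labels, so the split of reads among actins is uncertain.

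TpnC73F, a troponin C, was the other member that fell. At late passages R1 had 2.27, 0.776 and 0.668 CPM, R4 0.794, 0.863 and 0.510 CPM and R5 0.840, 2.24 and 0.775 CPM. At early passages R1 had 6.84, 4.31 and 9.43 CPM, R4 1.01, 4.59 and 8.75 CPM and R5 1.33, 5.17 and 12.8 CPM. Passage 4 was the highest library of each line, and the late values overlapped the early ones only through passage 2 of R4 and R5. The change was -2.34 ± 0.30 late against early (adjusted p = 0.0114) and -1.40 ± 0.29 intermediate against early (adjusted p = 0.0389, edgeR quasi-likelihood test, n = 3 lines). The intermediate call was lost in 7 of 31 fits without a single library, at most at 0.131 without R5 at passage 4, and without R1 (0.197), R4 (0.238) or R5 (0.0801). The late call was lost without R1 (adjusted p = 0.0755) or without R4 (adjusted p = 0.136, same test). Without R1, R4 and R5 the intermediate calls over all genes went from 889 to 21, 6 and 887. The late calls over all genes fell as given above for Act79B. With passage 4 counted as intermediate, the intermediate change was 0.12 (adjusted p = 0.857). At passage 4 against passage 2 TpnC73F had a log2 change of 2.02 ± 0.60 that did not pass (adjusted p = 0.0772).

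**Figure D3:**
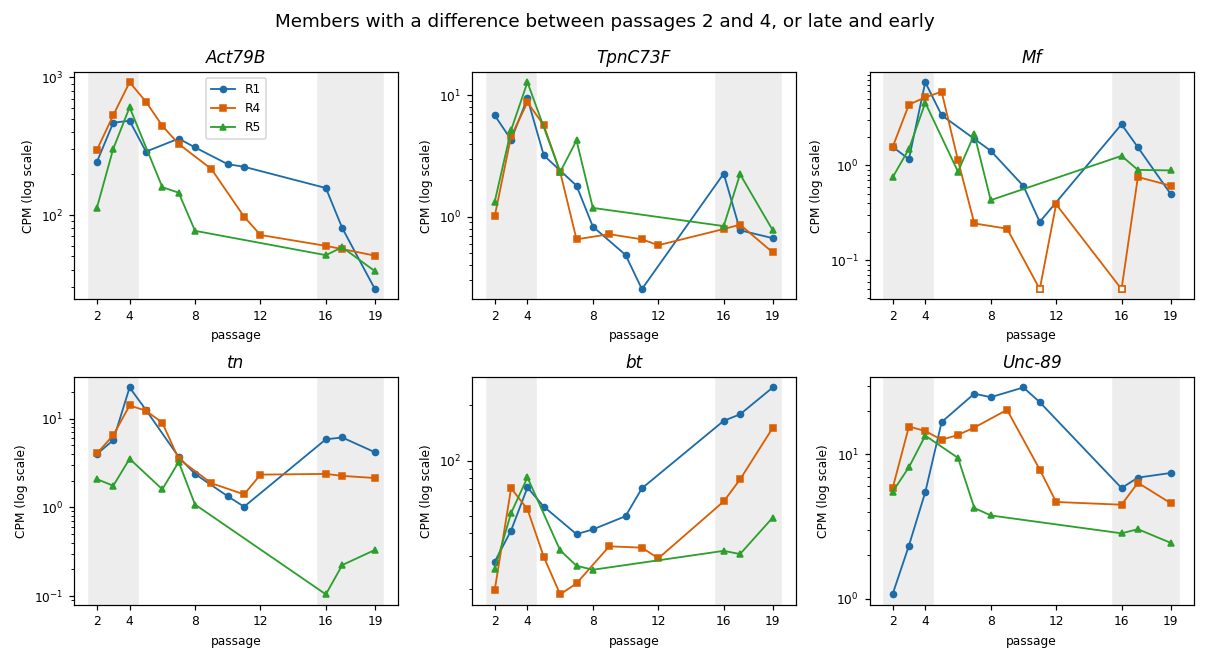
CPM (log scale) against passage for 6 members called in the comparison of late with early or of passage 4 with passage 2, with 1 line per cell line, grey bands for the early and late stages and hollow points at 0.05 CPM for libraries without a read. Act79B, TpnC73F, Mf and tn are highest around passage 4, bt is highest at late passages in R1 and R4, and Unc-89 stays high through the intermediate passages of R1.

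Among the remaining troponin C genes, TpnC4 had the smallest adjusted p between lines at late. At late passages it had 0.436, 0.0776 and 0.251 CPM in R1, 4.55, 2.80 and 3.57 CPM in R4 and 1.89, 2.13 and 1.88 CPM in R5, groups that did not overlap. At early passages it had 1.28, 1.92 and 1.62 CPM in R1, 1.22, 2.22 and 0.826 CPM in R4 and 0.427, 1.93 and 2.24 CPM in R5. The late values thus lay below all early ones in R1 and above all early ones in R4. The changes of -2.64 ± 0.61 in R1, 1.36 ± 0.50 in R4 and 0.39 ± 0.51 in R5 differed among the lines (adjusted p of the difference 0.00320, edgeR quasi-likelihood test). At late, TpnC4 was lower in R1 than in R4 by -3.81 ± 0.61 (adjusted p = 0.000124, edgeR quasi-likelihood test) and higher in R5 than in R1 by 2.92 ± 0.62 (adjusted p = 0.000637). The R4 change alone was fragile: its adjusted p was 0.0392, and 0.109, 0.119, 0.129 and 0.0722 without passage 2, 4, 16 or 19 of R4, and 0.154 with passage 4 counted as intermediate (edgeR quasi-likelihood test).

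Troponin T and troponin I are encoded by up and wupA. For up, R1 had 5.67, 3.80 and 2.50 CPM at late passages, R4 0.505, 0.431 and 0.306 CPM and R5 0.210, 0.337 and 0.111 CPM, while the 9 early libraries held 0.238 to 1.11 CPM with a median of 0.540 CPM. All 3 late R1 libraries lay above every early library, and R1 had already reached 2.92 and 4.96 CPM at passages 10 and 11. In R1 up rose by 2.56 ± 0.75 (adjusted p = 0.0119, edgeR quasi-likelihood test), a call lost without R1 at passage 2 (0.0646) or at passage 3 (0.0550). At late the level was higher in R1 than in R4 by 3.22 ± 0.80 (adjusted p = 0.00751) and lower in R5 than in R1 by -4.12 ± 0.90 (adjusted p = 0.000875, edgeR quasi-likelihood test). The difference of its change among the lines passed narrowly (adjusted p = 0.0459, edgeR quasi-likelihood test) and was lost in 20 of 31 fits that left out a single library, at most to 0.111 without R1 at passage 2; it was also lost with passage 4 counted as intermediate (0.0865). The gene wupA, for troponin I, ran from 0.364 to 12.7 CPM over all libraries and was called in no comparison. Its means were 4.29 ± 1.58 CPM in R1, 1.5 ± 0.519 CPM in R4 and 4.45 ± 3.23 CPM in R5 at late, against 2.56 ± 1.42, 3.36 ± 0.627 and 6.93 ± 5.03 CPM at early passages (SD, n = 3 libraries each), and in each line the mean of wupA lay on the same side of its early mean as that of up.

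The actins Act57B and Act87E were lowest at intermediate passages in R1 and R4. In R1, Act87E had 50.6, 71.7 and 70.5 CPM at early, 19.6, 8.26, 4.16, 3.16 and 6.87 CPM at intermediate and 27.9, 53.8 and 56.4 CPM at late passages. In R4 it had 30.9, 62.2 and 20.1 CPM, 14.5, 5.98, 4.17, 3.10 and 4.11 CPM and 16.2, 14.9 and 19.4 CPM over the same stages. The stages lay closer in R5, with 25.2, 32.1 and 27.8 CPM, 25.6, 13.6 and 18.4 CPM and 22.2, 19.1 and 5.20 CPM. However, R5 had no intermediate library after passage 8, whereas the lowest R1 and R4 values were at passages 10 and 9. Averaged over lines the intermediate change of Act87E was -1.82 ± 0.54 and did not pass (adjusted p = 0.0800, edgeR quasi-likelihood test). An intermediate mean below both the early and the late mean was found for 10 members in R1, 15 in R4 and 9 in R5 out of 26, against 28.8%, 30.4% and 30.2% of all tested genes. For Act57B the late levels differed among lines (adjusted p = 0.000804): 10.6, 15.1 and 7.85 CPM in R1, 4.26, 3.77 and 3.98 CPM in R4 and 2.10, 2.35 and 0.664 CPM in R5. It was lower in R5 than in R1 by -2.70 ± 0.55 (adjusted p = 0.000532, edgeR quasi-likelihood test).

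Tm1, which also makes cytoplasmic tropomyosins, held 620.4 to 850.3 CPM at late, 483 to 696 CPM at intermediate and 486 to 949 CPM at early passages, with medians of 729.6, 607 and 728 CPM. The groups overlapped, and the late change was 0.00 ± 0.07 (adjusted p = 0.988, edgeR quasi-likelihood test). Tm2, the other muscle tropomyosin gene, was highest in R4 at late, with 1.80, 1.73 and 3.88 CPM against 0.675, 0.158 and 0.413 CPM at early passages of R4. Its change in R4 was 2.51 ± 0.72 (adjusted p = 0.00976, edgeR quasi-likelihood test), with an adjusted p of 0.0524 without R4 at passage 3 and 0.0556 without R4 at passage 19. TpnC41C, a troponin C with at most 1.31 CPM, was at no more than 0.216 CPM in R4 at late.

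Of the 6 thick filament members 4 were tested, none was called at late against early passages, and their 4 late changes were all negative, with a median of -0.75. Mlc2, the regulatory light chain of muscle myosin, fell at intermediate against early passages. At intermediate passages R1 had 9.87, 5.51, 7.60, 4.37 and 3.95 CPM, against 16.0, 13.7 and 17.3 CPM at early passages. R4 had 8.20, 2.42, 3.35, 3.82 and 2.61 CPM at intermediate and 15.0, 16.9 and 18.2 CPM at early passages, and R5 28.1, 12.9 and 23.8 CPM and 28.7, 42.3 and 40.8 CPM. In each line all intermediate values lay below all early values, and the log2 change was -1.28 ± 0.23 (adjusted p = 0.0292, edgeR quasi-likelihood test, n = 3 lines). Without the line as block the adjusted p was 0.448, without R1 0.192 and without R4 0.191, and 0.0526 with passage 4 counted as intermediate (same test). Over all genes the calls went from 889 to 349, 21, 6 and 681 in these fits. At late, Mlc2 had 31.5, 32.9 and 10.8 CPM in R5, 9.86, 6.98 and 8.68 CPM in R1 and 6.28, 6.68 and 10.5 CPM in R4. It was higher in R5 than in R1 by 1.56 ± 0.40 (adjusted p = 0.00423) and than in R4 by 1.68 ± 0.41 (adjusted p = 0.00247, edgeR quasi-likelihood test).

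Prm, which encodes paramyosin of the thick filament core, had the widest late gap between lines of the tested members. At late passages R5 had 99.2, 135 and 45.5 CPM, R1 0.960, 0.776 and 1.34 CPM and R4 0.722, 1.29 and 0.918 CPM. At early passages R5 had 5.18, 51.2 and 92.3 CPM, R1 1.43, 3.38 and 3.04 CPM and R4 2.77, 9.66 and 3.47 CPM. The late values of R5 lay far above those of both other lines, whereas at passage 2 R5 was near them and R4 at passage 3 exceeded R5 at passage 2. At late the R5 level was higher than in R1 by 6.50 ± 0.80 (adjusted p = 1.46e-06) and than in R4 by 6.60 ± 0.81 (adjusted p = 1.72e-06, edgeR quasi-likelihood test). The gap was called at early as well (adjusted p = 0.000311). In R4 Prm had a late change of -2.45 ± 0.82 (adjusted p = 0.0240, edgeR quasi-likelihood test), which was not called without R4 at passage 3 (0.165), 16 (0.0890) or 19 (0.0648). Whether the change differed among lines was marginal (adjusted p = 0.0476, edgeR quasi-likelihood test) and the call was lost in 22 of 31 fits without a single library, at most to 0.117 without R5 at passage 17.

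Mf, which encodes the thick filament protein myofilin, had 7.50, 5.20 and 4.56 CPM at passage 4 in R1, R4 and R5, against 1.57, 1.55 and 0.747 CPM at passage 2. Passage 4 was above passage 2 in each line, with a log2 change of 2.23 ± 0.46 (adjusted p = 0.0296, edgeR quasi-likelihood test). The call was lost without R1 or R5, and without any of passages 2 and 4 of R1, passage 2 of R4 and passages 2, 3 and 4 of R5, with adjusted p up to 0.133 without R5, and it was 0.0610 without the line as block. The late change of Mf was -1.51 ± 0.50 (adjusted p = 0.105). Mhc, the muscle myosin heavy chain, had 705 reads over all libraries. Its highest value was R1 at passage 16, with 4.97 CPM, where Mlc1 also had its highest, 0.960 CPM. At late Mhc was higher in R1 than in R4 by 1.34 ± 0.46 (adjusted p = 0.0472, edgeR quasi-likelihood test), but without R1 at passage 16 the adjusted p of the difference among lines was 0.309, against 0.0300 with it. It was also lost without R4 at passage 16 (0.0665) or 17 (0.0628).

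Of the 10 members of the Z-disc, M-line and elastic filaments 9 were tested; none was called at late against early passages, and bt, Unc-89 and tn rose at passage 4 against passage 2. The titin-like genes bt (projectin) and sls (Sallimus) differed in which line was highest. At late passages bt had 165, 179 and 250.5 CPM in R1, 59.8, 78.8 and 151 CPM in R4 and 32.1, 30.9 and 48.8 CPM in R5. At early passages it had 28.0, 41.5 and 71.3 CPM in R1, 19.6, 70.6 and 54.2 CPM in R4 and 25.6, 51.6 and 80.8 CPM in R5. In R1 every late value lay above every early value, while in R4 and R5 the stages overlapped. The late changes of 2.08 ± 0.43 in R1 (adjusted p = 0.000786), 1.0 ± 0.42 in R4 and -0.49 ± 0.42 in R5 differed among the lines (adjusted p = 0.0138, edgeR quasi-likelihood test). With passage 4 counted as intermediate this difference was not called (adjusted p = 0.0690). At late bt was lower in R5 than in R1 by -2.41 ± 0.43 (adjusted p = 0.00015) and than in R4 by -1.37 ± 0.42 (adjusted p = 0.0145, edgeR quasi-likelihood test).

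For sls, R5 was the highest line. At late passages it had 485, 504 and 297 CPM in R5, 165, 178 and 197 CPM in R1 and 103, 123 and 141 CPM in R4, and the R5 values lay above all others. It was higher in R5 than in R1 by 1.25 ± 0.31 (adjusted p = 0.00348) and than in R4 by 1.81 ± 0.32 (adjusted p = 0.000136, edgeR quasi-likelihood test). At passage 2 the lines had been closer, with 106 CPM in R5, 159.6 CPM in R1 and 99.3 CPM in R4. The late over early change averaged over lines was 0.38 ± 0.25 and did not pass (adjusted p = 0.348). An antisense RNA overlaps exons of sls on the other strand, and whether reads were counted by strand is unknown. Exons of Act87E, Tm1, TpnC25D, fln, Actn, Strn-Mlck and SERCA also overlap other genes on the opposite strand. Exons of Act57B, Actn, Msp300 and jp overlap other genes on the same strand. The part of such overlaps in the levels and changes of these members was not tested.

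At passage 4, bt had 71.3, 54.2 and 80.8 CPM in R1, R4 and R5, against 28.0, 19.6 and 25.6 CPM at passage 2 (log2 1.5 ± 0.24, adjusted p = 0.0129, edgeR quasi-likelihood test). Without R4 at passage 2 the adjusted p was 0.0574, without R1 at passage 4 0.0524, without R5 at passage 2 0.0565, without R1 0.0718 and without R5 0.0773. The gene tn, which encodes the TRIM protein Thin that keeps sarcomeres intact, had 22.4, 14.0 and 3.52 CPM at passage 4, against 3.99, 4.05 and 2.08 CPM at passage 2 in R1, R4 and R5. The log2 change was 1.76 ± 0.32 (adjusted p = 0.0201, edgeR quasi-likelihood test). It was not called without R4 at passage 2 (0.0983), R1 at passage 2 (0.0771), R1 at passage 4 (0.0552), R1 as a whole (0.153) or R4 as a whole (0.0758), nor without the line as block (0.137). By the late stage tn was at 0.105, 0.224 and 0.332 CPM in R5, 5.84, 6.13 and 4.17 CPM in R1 and 2.38, 2.26 and 2.14 CPM in R4, so that R5 was the lowest line. It was lower in R5 than in R1 by -4.55 ± 1.13 and than in R4 by -3.31 ± 1.18 (adjusted p of the difference among lines 0.00595, edgeR quasi-likelihood test).

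Unc-89, the obscurin of the M-line (Obsc in the current annotation), followed another course in R1 than in the other lines. In R1 it had 1.07, 2.33 and 5.47 CPM at early, 16.8, 26.4, 24.9, 29.1 and 23.0 CPM at intermediate and 5.84, 6.90 and 7.43 CPM at late passages, the intermediate values lying above all others of the line. R4 had 5.81, 15.6 and 14.5 CPM at early, 12.6, 13.7, 15.4, 20.4 and 7.84 CPM at intermediate and 4.48, 6.36 and 4.59 CPM at late passages. R5 had 5.50, 8.15 and 13.5 CPM, 9.46, 4.25 and 3.77 CPM and 2.83, 3.03 and 2.44 CPM. The late changes of 1.23 ± 0.46 in R1, -1.22 ± 0.44 in R4 and -1.70 ± 0.47 in R5 differed among the lines (adjusted p = 0.00595, edgeR quasi-likelihood test). Taken alone, the 3 changes had adjusted p of 0.0455, 0.0360 and 0.0118, and each was lost without some library: up to 0.228 in R1 without passage 2, 0.142 in R4 without passage 3 and 0.0705 in R5 without passage 4. With passage 4 counted as intermediate the adjusted p was 0.135 in R4 and 0.123 in R5. At passage 4 Unc-89 was above passage 2 in each line (log2 1.60 ± 0.29, adjusted p = 0.0192, edgeR quasi-likelihood test). This call was lost without R1 at passage 2 (0.0589), R4 at passage 2 (0.0939), R1 (0.101) or R5 (0.0665), and without the line as block (0.308).

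Strn-Mlck, which encodes Stretchin-Mlck of the thick filament region, was called higher in R1 than in the other lines at early passages, while its late levels did not pass (adjusted p = 0.139, edgeR quasi-likelihood test). At late passages R1 had 126, 118 and 133 CPM, R4 100.4, 89.5 and 103 CPM and R5 109, 85.2 and 124 CPM. At early passages R1 had 317, 224 and 217 CPM, R4 118, 129.5 and 105 CPM and R5 113, 126 and 119.9 CPM. The early values of R1 lay above all other libraries of the 3 lines at early and late, and the late values of R1 still lay above all late ones of R4. In R1 it fell by 1.01 on the log2 scale (SE 0.16, adjusted p = 5.87e-05), against changes of -0.26 ± 0.16 in R4 and -0.18 ± 0.16 in R5 (adjusted p of the difference 0.0213, edgeR quasi-likelihood test). The difference was not called without R1 at passage 2 (0.0958) or 17 (0.0631), or with passage 4 counted as intermediate (0.0850). Actn, the alpha-actinin that links thin filaments at the Z-disc, ran from 90.2 to 146 CPM over all libraries. In R1 it fell to 90.2, 101 and 91.4 CPM at late against 138, 146 and 126 CPM at early passages (log2 -0.54 ± 0.12, adjusted p = 0.00115, edgeR quasi-likelihood test). The PDZ-LIM gene Zasp52 ran from 18.7 to 56.5 CPM, its relative Zasp66 from 0 to 2.92 CPM and the muscle LIM gene Mlp84B from 0.945 to 5.09 CPM, and none of these was called in any comparison.

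Msp300, a nesprin-like protein that positions muscle nuclei and also acts outside muscle, had the highest mean CPM of the members, 1105 over 31 libraries, without correction for its length. At late passages R5 had 2396, 1938 and 1630.0 CPM, R1 997, 952 and 1132 CPM and R4 613, 597 and 853 CPM, with no overlap of the 3 lines. At passage 2 the lines had been almost level, at 1089 CPM in R5, 1066 CPM in R1 and 1013 CPM in R4. In R4 it was at 482 CPM at passage 4 and 1060.0 CPM at passage 3, each a single library, and stayed at 447 to 629 CPM over the intermediate passages. R4 at passage 4 is also the library that stands apart from the earlier ones of its line on the first principal component. At late Msp300 was higher in R5 than in R1 by 0.95 ± 0.21 (adjusted p = 0.00125) and than in R4 by 1.53 ± 0.22 (adjusted p = 9.87e-06, edgeR quasi-likelihood test). The late over early change averaged over lines was 0.05 ± 0.20.

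SERCA, the calcium pump of the sarcoplasmic and endoplasmic reticulum, varied little. The late libraries held 315 to 398 CPM with a median of 336 CPM, and the early ones 260.1 to 335 CPM with a median of 292 CPM. All 9 late values lay above the early median, although the ranges overlapped, and the average change of 0.24 ± 0.06 did not pass (adjusted p = 0.0684, edgeR quasi-likelihood test). Junctophilin, encoded by jp and known to hold the membrane and the calcium store together, had 9.60, 6.21 and 11.4 CPM at late in R1 against 104, 103 and 120.4 CPM at early. In R1 jp fell by 3.59 on the log2 scale (SE 0.75, adjusted p = 0.000923, edgeR quasi-likelihood test), after a lowest value of 1.15 CPM at passage 11. R4 had 7.29, 7.98 and 7.75 CPM at late against 13.8, 16.9 and 23.4 CPM at early, and R5 9.97, 19.5 and 6.75 CPM against 12.5, 15.2 and 37.4 CPM. The early R1 values lay far above all others; the changes in R4 (-1.23 ± 0.72) and R5 (-0.84 ± 0.70) did not pass, and the difference among lines in the change was not called.

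**Figure D4:**
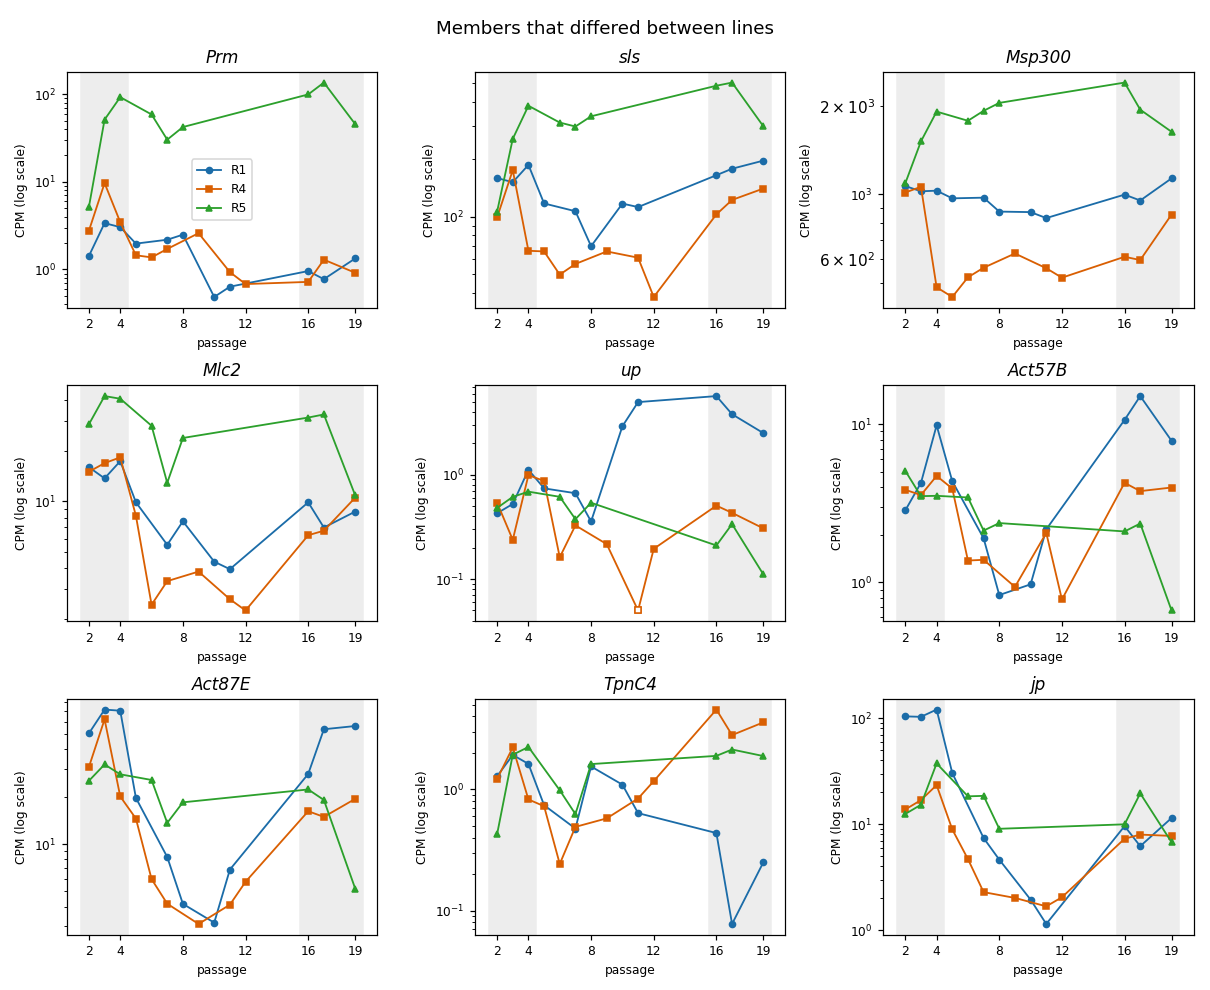
CPM (log scale) against passage for 9 members called as different among the lines at late or at early passages, with 1 line per cell line, grey bands for the early and late stages and a hollow point at 0.05 CPM for a library without a read. R5 lies highest at late for Prm, sls, Msp300 and Mlc2, R1 for up, Act57B and Act87E, and R4 for TpnC4, while jp is highest in the early libraries of R1.

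Counted over the 26 tested members, the late levels of 13 differed among the lines, against 46.3% of all tested genes, and the early levels of 5, against 4.69% (joint edgeR quasi-likelihood tests). With passage number as block 5 members were again called at early, but without Msp300 (adjusted p = 0.284), and the count over all genes was 193 in place of 430. Msp300 also lost its early call in 22 of 31 fits without a single library, at most at 0.244 without R5 at passage 4. The share at late was close to that in all genes. The late change differed among the lines for 6 members, against 12.8% of all genes. At late, R5 against R1 gave 5 members higher and 6 lower (33.7% of all genes called, 17.4% higher and 16.3% lower). R5 against R4 gave 5 higher and 3 lower (34.1%, 17.4% higher and 16.7% lower), and R1 against R4 gave 2 higher and 1 lower (14.7%, 7.24% higher and 7.46% lower). Within the lines, late against early, R1 had 4 members higher and 6 lower (27.7% of all genes called, 12.5% higher and 15.2% lower). R4 had 3 higher and 5 lower (30.9%, 14.1% higher and 16.7% lower), and R5 none higher and 3 lower (17.4%, 7.73% higher and 9.72% lower). Act79B was called lower in all 3 of these, and 6 of the R1 calls, 1 of the R4 calls and 1 of the R5 calls held in every fit without a single library. Over the summed level of all 33 members, R5 had 3540 to 4585 CPM at late, R1 2872 to 3043 CPM and R4 2070 to 2546 CPM. Msp300 alone contributed a mean of 1988 CPM in R5, 1027 CPM in R1 and 688 CPM in R4 to these sums, and over the 26 members the log2 difference of R5 from R1 had a median of 0.04, with 14 positive and 12 negative values. Hemocyte markers summed to 1333 to 2009 CPM in R5, 1225 to 1313 CPM in R1 and 1996 to 2137 CPM in R4 at late. Most of each sum was Col4a1, and the part of these markers in the differences was not tested.

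The within-line calls not yet described were small or depended on single libraries. SERCA was higher at late in R1 (0.23 ± 0.08, adjusted p = 0.0274) and in R4 (0.25 ± 0.08, adjusted p = 0.0150, edgeR quasi-likelihood test). The R1 call was lost without R1 at passage 2 (0.0705), 4 (0.102), 17 (0.0650) or 19 (0.0783), and the R4 call without R4 at passage 4 (0.0504) or 19 (0.0755). TpnC73F was lower in R1 (-2.46 ± 0.92, adjusted p = 0.0452) and in R4 (-2.70 ± 0.97, adjusted p = 0.0357, edgeR quasi-likelihood test). Leaving out a single library ended the R1 call in 13 of 31 fits, at most at 0.145 without R1 at passage 17, and the R4 call in 5, at most at 0.149 without R4 at passage 4. Mlc2 was lower in R4 (-1.10 ± 0.40, adjusted p = 0.0405), a call lost in 5 fits, at most at 0.137 without R4 at passage 16 (edgeR quasi-likelihood test). In R5 tn was lower (-3.42 ± 1.17, adjusted p = 0.0394), a call lost without any 1 of the 6 early and late libraries of R5, at most at 0.133 without passage 16 (edgeR quasi-likelihood test). With passage 4 counted as intermediate the adjusted p of these calls was 0.137 and 0.0772 for SERCA in R1 and R4, 0.178 and 0.259 for TpnC73F in R1 and R4, 0.255 for Mlc2 in R4 and 0.109 for tn in R5.

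Other genes of muscle were counted from lists written with the members. Of 28 tested further muscle genes (structural proteins, receptors and enzymes) 1 rose at late against early passages, DAAM, a formin, at 55.8 ± 7.68 CPM at late and 35.3 ± 7.83 CPM at early (SD, n = 3 lines; log2 0.70 ± 0.12, adjusted p = 0.0245, edgeR quasi-likelihood test). Of the same list 2 fell: Argk1, arginine kinase, at 108 ± 46.3 CPM at late and 339 ± 112 CPM at early (log2 -1.68 ± 0.37), and GluRIIB, a subunit of the muscle glutamate receptor, at 0.885 ± 0.370 and 3.07 ± 0.360 CPM (log2 -1.80 ± 0.43). Over the list the median log2 change was -0.20. Within lines, late against early, 10 of the 28 fell and 2 rose in R1 (15.2% and 12.5% of all genes). In R4 9 fell and 2 rose (16.7% and 14.1%), and in R5 4 fell and none rose (9.72% and 7.73%). At late 10 were higher and 4 lower in R5 than in R1 (17.4% and 16.3%). Against R4, 13 were higher and 2 lower in R5 (17.4% and 16.7%). At passage 4 against passage 2 the receptor subunit GluRIIC rose (log2 1.93 ± 0.29, adjusted p = 0.0113, edgeR quasi-likelihood test) and no gene of the list fell.

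Of 15 tested muscle regulators none rose and 2 fell at late against early passages, Hand and bin, transcription factors of the heart and the visceral mesoderm. Hand held 0 to 0.443 CPM at late and 0.165 to 64.2 CPM at early passages, and bin 0 to 0.167 CPM and 0.165 to 5.63 CPM (adjusted p = 0.0134 and 0.0222, edgeR quasi-likelihood test). At passages 2, 3 and 4 Hand had 64.2, 17.3 and 5.68 CPM in R5 and 16.3, 3.25 and 0.165 CPM in R4, but only 0.499, 0.291 and 0.203 CPM in R1. Mef2, the general activator of muscle genes, was at 30.8 to 64.8 CPM at late and 35.9 to 55.3 CPM at early and was not called. At passage 4 against passage 2, lmd, an activator in fusing myoblasts, rose by 1.89 ± 0.34 and ap, a selector of muscle identity, by 0.89 ± 0.20 on the log2 scale, while Hand and Him fell (adjusted p from 0.00758 to 0.0353, edgeR quasi-likelihood test). None of 10 non-muscle counterparts (cytoplasmic actins, non-muscle myosin and their kin) was called at late against early passages by edgeR, 3 having an unadjusted p under 0.05, and their median log2 change was -0.06. At intermediate against early passages 3 of the 10 fell, against 6.02% of all tested genes. They were ck, sqh and Mlc-c, myosin genes named here after their values were seen. Within lines 3 fell in R1 and 3 in R4 at late against early (15.2% and 16.7% of all genes), and 1 rose in R5 (7.73%). At late 4 were higher in R5 than in R1 and 6 higher in R5 than in R4, each against 17.4% of all genes.

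Of the lists of other cell types, 3 of 4 tested fat body markers fell at late against early and none of 7 hemocyte markers was called by edgeR, with 1 at an unadjusted p under 0.05. Of 8 neuron markers 1 fell, of 5 glia markers 1 fell, and of 5 tested epidermis and trachea markers 2 fell and 1 rose. Their sums were 162 to 219 CPM at late and 176.1 to 248.8 CPM at early for neuron, mostly elav (means 173.8 and 187.7 CPM). For glia they were 496 to 668.3 CPM and 469.9 to 741.4 CPM, mostly nrv2 (means 513.8 and 445.4 CPM). For epidermis and trachea they were 145.5 to 300.6 CPM and 110.8 to 615.8 CPM, mostly vvl and btl. Over the markers 6 of 8 neuron changes (median log2 -1.07) and 4 of 5 glia changes (median -0.84) were negative, as were 3 of 5 in epidermis and trachea (median -0.56). The neuron changes went different ways by line. In R1 7 of 8 were positive (median 0.39) and none was called. In R4 5 of 8 were called lower (median -1.6) and in R5 also 5 (median -2.1), against 16.7% and 9.72% of all genes. The late change of 6 of the 8 differed among the lines, against 12.8% of all genes. Among 4 adult muscle precursor genes none was called by edgeR on average over the lines, and 1 had an unadjusted p under 0.05. Within lines 2 rose in R1, 1 rose and 1 fell in R4, and none was called in R5. The late levels of 3 of the 4 differed among the lines, against 46.3% of all tested genes.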

How the data were processed

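The authors deposited raw counts, 1 whole-number count per gene and library, as total RNA reads of 32 libraries. Per the labels' protocols, ribosomal RNA was depleted before the ScriptSeq library preparation. Per the submitters' processing notes, TopHat 1.4.1, Bowtie 0.12.8 and bedtools were used on BDGP5 (dm3); their roles, how reads were counted, whether by strand, and what was done with reads that match several genes were not given in the sources used here. Entries without a gene (2 of 15253, 0.0123 to 0.0187% of the counts) were left out.

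Members, lists and tests were chosen with earlier results of these data known. Gene names came from the BDGP6.54 annotation, which also gave exon lengths; no coordinates are printed because the counts rest on an older build. Counts were TMM-scaled. Stages were compared on 9 libraries, the sums over each line in each stage, by the quasi-likelihood F test of edgeR 4.0.16 (R 4.3.3), stage as factor and line as block, with 4 residual degrees of freedom. For comparisons within and between lines, 31 libraries were fitted in 9 groups, with 22 residual degrees of freedom. Passage 4 against 2 used the 9 early libraries with line as block. P-values were adjusted over 9177 genes by Benjamini-Hochberg, with a threshold of 0.05, and the scripts were tested on simulated data. SE is the log2 change before edgeR shrinks it, divided by the root of F. The printed log2 changes are those after shrinkage and may differ from it for members of few reads.

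The series text puts passage 4 in both the early and the intermediate stage; it was taken as early. The passages of a line come from 1 culture, which makes the line the replicate. Deviations from the stage mean correlated between stages of a line at r = 0.236 to 0.632 across genes, which are not independent replicates, so lines pair the libraries; lines at the same early passage correlated at 0.114 to 0.729 and at the same late passage at -0.076 to 0.0836. Alternatives were other scalings, other filters, DESeq2 1.42.0, fits without the block, other stage borders and leaving out each library or line. Genes with values were all members called in a stage or passage comparison, the 6 with the highest mean CPM, the 8 with the smallest adjusted p at late between lines and the 5 for the change, plus others given by range or because a count included them. Depth limits members of a few reads, and counting intervals were not used.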

Additional observations from a re-analysis of the deposited data

Results flagged for a closer look

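Among 52 groups of 5 libraries (26 members, the intermediate stages of R1 and R4), 9 held a library far from the others by Dixon's criterion. For a single group chance alone meets it in about 1 of 20 cases, but these groups share their libraries and are not independent. In R1, passage 5 was high for wupA at 3.78 CPM, tn at 12.5 CPM and jp at 30.3 CPM, and passage 8 was low for sls at 70.2 CPM. In R4, passage 5 was high for Act87E at 14.5 CPM, Mlc2 at 8.2 CPM, wupA at 4.5 CPM and Mf at 5.95 CPM, and passage 11 was high for Tm1 at 549 CPM. Of these 9 values 7 were at passage 5, the first passage of the stage in both lines.

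The late over early change differed among R1, R4 and R5, by the joint edgeR quasi-likelihood test, for TpnC4 (adjusted p = 0.0032), Unc-89 (0.00595), bt (0.0138), Strn-Mlck (0.0213), up (0.0459) and Prm (0.0476).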

How the results depend on the processing

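Counts of called members moved by over 1.5 times under some alternatives. With DESeq2, 7 members were called at late against early passages (2 with edgeR) and 7 at intermediate against early (2). It called 3 at late against intermediate (0) and 9 at passage 4 against 2 (5). Over all genes DESeq2 called 1860 (967 with edgeR), 1989 (889), 291 (7) and 1224 (804) in the same order, so the rise was not confined to the members. Without the line as block, 1 member was called at intermediate against early and 1 at passage 4 against 2, with 349 (889) and 387 (804) calls over all genes. With passage 4 counted as intermediate, 0 were called at intermediate against early, 1 at late against intermediate and 4 in R4 at late against early (8), and TpnC73F at intermediate against early reversed to 0.12 (adjusted p = 0.857). Over all genes, passage 4 as intermediate gave 681 (889), 9 (7) and 2615 (2833) calls in these 3 comparisons. The stricter filter of 5 CPM left members of low level untested, among them Tm2, up, TpnC41C, TpnC4 and Mhc, which therefore could not be called. With it, 3 members differed among lines in their change (6) and 8 in their late level (13). Over all genes it gave 923 (1174) and 3658 (4248) calls. Leaving out 1 library gave 2 to 3 calls at late against early and leaving out a line 0 to 2; the ranges were 1 to 3 and 0 to 4 at intermediate against early, 0 and 0 to 1 at late against intermediate, and 1 to 7 and 2 to 6 at passage 4 against 2. Without 1 library, calls numbered 6 to 10 in R1, 2 to 10 in R4, 2 to 3 in R5, 3 to 8 for the change among lines, 11 to 14 for the late and 2 to 7 for the early difference. With passage number as replicate block, TpnC41C at late (adjusted p = 0.0570) and Msp300 at early (adjusted p = 0.284) lost their call; the line block changed no call other than those counted above. Without passage 2, Strn-Mlck and up no longer differed among lines in their change (adjusted p = 0.183 and 0.134). Of single-gene values under all alternatives 1705 kept their direction and call, 235 lost the call and 1 reversed. The causes were not tested. Members with few reads limit what could be called at this depth.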

Other observations

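R4 at passage 12, which fell in no stage, had 71.6 CPM of Act79B, 38.1 CPM of sls, 2.24 CPM of Mlc2, 4.68 CPM of Unc-89, 29.2 CPM of bt and 520.2 CPM of Msp300. The sls and Mlc2 values were the lowest of all 32 libraries.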
